A study of Homo sapiens with 288 samples.

Results

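The MTRNR2L-rich EC cells are 4 single endothelial cells, EC 40, EC 42, EC 44 and EC 45, in which the nuclear genes of the MTRNR2L family took between 21.6% and 42.5% of all counts. They were chosen by a measured value: in the equalized experiment (EQ) they were the 4 of 45 EC cells with more than 31% of their counts in their 50 most abundant genes. They were set against 38 other EC cells of EQ, which had 31% or less in the top 50 genes and a log10 total count of at least 5.4. The remaining 3 EC cells, EC 1, EC 14 and EC 41, had between 11404 and 13913 counts in EQ and belonged to neither group. The series held 288 libraries from 96 cells (45 EC and 51 TB) in each of 3 experiments.

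All cells came from the human embryonic stem cell line H1, so no donor or genotype differed between groups. EC cells received 5 ng/ml BMP4 and 25 ng/ml activin A for 2 days, followed by VEGF and WNT for 3 days. TB cells, described as trophoblast-like, received 50 ng/ml BMP4 with SB431542 in medium lacking FGF2. Each cell was captured on the Fluidigm C1 system, where its mRNA became amplified full-length cDNA, and the stored cDNA was used again for EQ, EQ-Vary (pooled in variable volumes) and EQ-75% (cDNA input and pooling as in EQ, sequenced less deeply, as its name states). The same 4 EC cells exceeded 31% in EQ, EQ-Vary and EQ-75%, and none of the 51 TB cells did in any of them. Because the 3 experiments share cDNA, they repeat steps that follow it, not the cells. By the study's methods EQ-Vary differed from EQ in the pooling volume, while EQ-75% repeated the whole EQ procedure. Whether EQ-Vary had a library preparation of its own is not stated. Every EC against EC value is therefore a description of 4 cells selected on the data, with ranges over cells and without a test.

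MTRNR2L genes are nuclear copies of the mitochondrial gene MT-RNR2, which encodes the large ribosomal RNA of the mitochondrial ribosome. They are named for their likeness to humanin, a short peptide whose reading frame lies inside that ribosomal RNA. Ribosomal RNA of mitochondria is among the most abundant RNA of a cell and carries short poly(A) tails, so it can be copied by priming from oligo(dT). A read from one of these copies and a read from MT-RNR2 itself can be hard to tell apart. The deposited tables listed 17492 genes, of which 8 were MTRNR2L genes and 0 were genes of the mitochondrial genome.

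The extent of that likeness is shown by 60 bases of MT-RNR2 (GRCh38, chrM:2115-2174, + strand) with the closest ungapped stretch of the MTRNR2L genes, printed 5′ to 3′ along the ribosomal RNA with every base that differs from MT-RNR2 in capitals. The position was taken as the middle of those where MTRNR2L12 and MTRNR2L8 both differed at 1 to 5 bases, with at least 4 differences in sum.

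MT-RNR2: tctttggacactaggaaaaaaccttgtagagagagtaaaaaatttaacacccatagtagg
MTRNR2L12: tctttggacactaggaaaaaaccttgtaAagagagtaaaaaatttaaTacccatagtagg
MTRNR2L8: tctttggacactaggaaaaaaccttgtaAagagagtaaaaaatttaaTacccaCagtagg
MTRNR2L1: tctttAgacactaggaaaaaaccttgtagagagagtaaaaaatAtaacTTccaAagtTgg
MTRNR2L7: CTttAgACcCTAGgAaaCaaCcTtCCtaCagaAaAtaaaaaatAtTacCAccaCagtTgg
MTRNR2L5: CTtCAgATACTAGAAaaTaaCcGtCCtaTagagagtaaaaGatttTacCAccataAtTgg

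MTRNR2L12 (chr3:96617732-96617791, - strand) differed at 2 of the 60 bases, MTRNR2L8 (chr11:10508685-10508744, - strand) at 3 and MTRNR2L1 (chr17:22523542-22523601, + strand) at 6. MTRNR2L7 (chr10:37602498-37602557, - strand) and MTRNR2L5 (chr10:55599384-55599443, + strand) differed at 24 and 25 bases. The other 3 members, MTRNR2L10, MTRNR2L4 and MTRNR2L3, had no closer ungapped stretch than 31 to 34 differences and are not printed. RefSeq annotates all 8 as pseudogenes on this build.

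Over the whole of MT-RNR2, whose 1559 bases hold 1509 windows of 51 bases, 38.4% of windows had a counterpart within 2 mismatches in MTRNR2L12. These are the read length and mismatch limit the authors used for mapping. The share was 32% for MTRNR2L8, 11.5% for MTRNR2L1, 6.56% for MTRNR2L10, 0.928% for MTRNR2L4 and 0.663% for MTRNR2L3. It was 0 of 1509 windows for both MTRNR2L5 and MTRNR2L7. At least 1 of the 8 genes matched 51.4% of the windows.

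**Figure D1:**
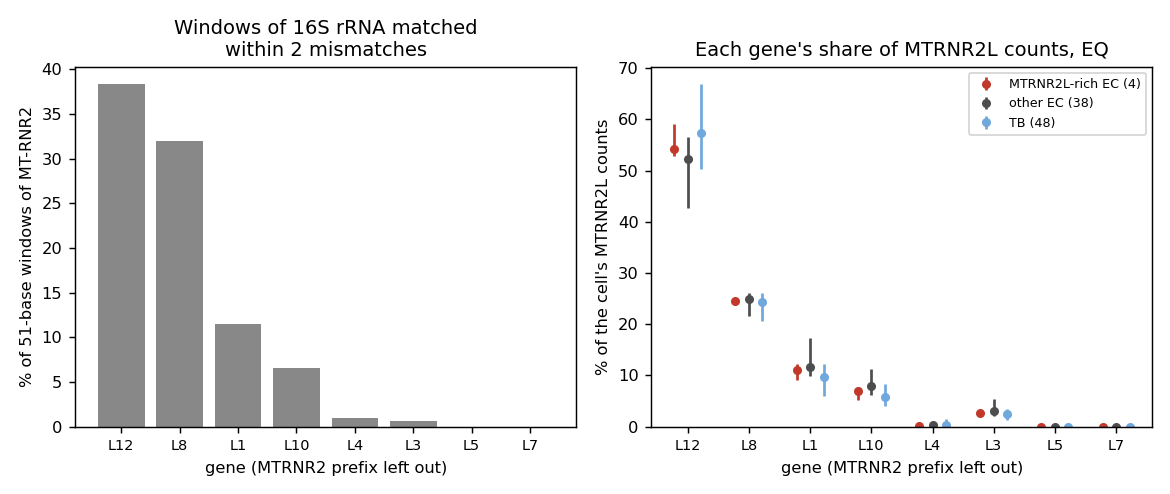
Left, the percent of 51-base windows of MT-RNR2 with a counterpart within 2 mismatches in each MTRNR2L gene. Right, the percent of a cell's MTRNR2L counts in each gene in EQ (points, median over cells; bars, lowest to highest cell) for 4 MTRNR2L-rich EC, 38 other EC and 48 TB cells. MTRNR2L12 and MTRNR2L8 lead both panels, and the 3 groups of cells overlap in most genes.

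The MTRNR2L counts followed nearly the same order as these windows. MTRNR2L12 had 24699 counts in EC 40, 74495 in EC 42, 44803 in EC 44 and 20668 in EC 45. MTRNR2L8 had 11225, 30878, 20448 and 9506 counts in the same cells. MTRNR2L1 and MTRNR2L10 followed, with 4225 to 11522 and 2497 to 6676 counts. MTRNR2L3 had 1036 to 2573 counts and MTRNR2L4 had 50 to 115, the only neighbours whose order differed from that of the windows. MTRNR2L5 had 0, 5, 1 and 0 counts and MTRNR2L7 had 0, 3, 4 and 1. Per kilobase of the annotated gene, MTRNR2L12 again came first (19911 to 71768 counts per kb), above MTRNR2L8 (7369 to 23936 counts per kb). Reads that map to several members were divided among them by estimation, so the values of single members are less certain than their sum.

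The make-up of the family was largely alike in all groups of cells. MTRNR2L12 held 52.8% to 59.0% of MTRNR2L counts in the MTRNR2L-rich cells, 42.7% to 56.6% in the other EC cells and 50.2% to 66.9% in the 48 TB cells that met both limits. The ratio of MTRNR2L12 to MTRNR2L8 counts was 2.17 to 2.41, 1.71 to 2.31 and 1.98 to 3.26 in those groups. MTRNR2L4, a minor member, held 0.091% to 0.203% (median 0.117%) in the MTRNR2L-rich cells and 0.102% to 0.987% (median 0.340%) in the other EC cells. In TB cells it held 0.202% to 1.42%. What set the 4 cells apart was the share of all counts that the family took, which was part of their selection, more than the balance of its main members.

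The MTRNR2L genes together took 23% of the counts of EC 40 (exact 95% binomial interval 22.8% to 23.2%), 37.5% of EC 42 (37.3% to 37.7%), 42.5% of EC 44 (42.3% to 42.7%) and 21.6% of EC 45 (21.4% to 21.8%). These intervals cover counting error only, as reads copied by PCR without molecular identifiers are not independent molecules. In the 38 other EC cells the share had a lowest value of 0.496%, a median of 1.56% and a highest of 8.70%. In TB cells it was 0.0283% to 7.57% (median 0.967%). The share was part of what selected the 4 cells, and the nearest cells outside were EC 23 and EC 33, with 8.70% and 8.33% of counts in MTRNR2L genes and 23.1% and 24.2% in the top 50 genes. The nearest inside the limit was EC 40, with 36.6% in its top 50 genes.

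The absolute counts gave a different picture from the shares. The MTRNR2L count was 45558, 126267, 84832 and 38010 in the 4 cells, against 4814 to 107743 (median 38068) in the other EC cells. EC 45 lay near that median, EC 40 and EC 44 between it and the highest value, and EC 42 above the highest. The counts in all other genes were 152373, 210576, 114907 and 138227, against 466764 to 3928144 (median 1989900). Every MTRNR2L-rich cell lay below every other EC cell in that sum. The total counts, 197931, 336843, 199739 and 176237, were likewise below the lowest total of the other EC cells, 471578, and 3 of the 4 fell under the limit on total count as well. That limit was applied only to the other EC cells, so both separations came in part from the choice of groups. The 3 EC cells left out for depth had 11263 to 13712 counts outside MTRNR2L, below all 4. In EQ, by the study's methods, every cell gave a fixed amount of cDNA and was pooled in equal volume. Counts are therefore not amounts of RNA per cell. A larger amount of MTRNR2L-like RNA and a smaller amount of all other RNA cannot be told apart. Depth moved with the grouping in every result below.

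**Figure D2:**
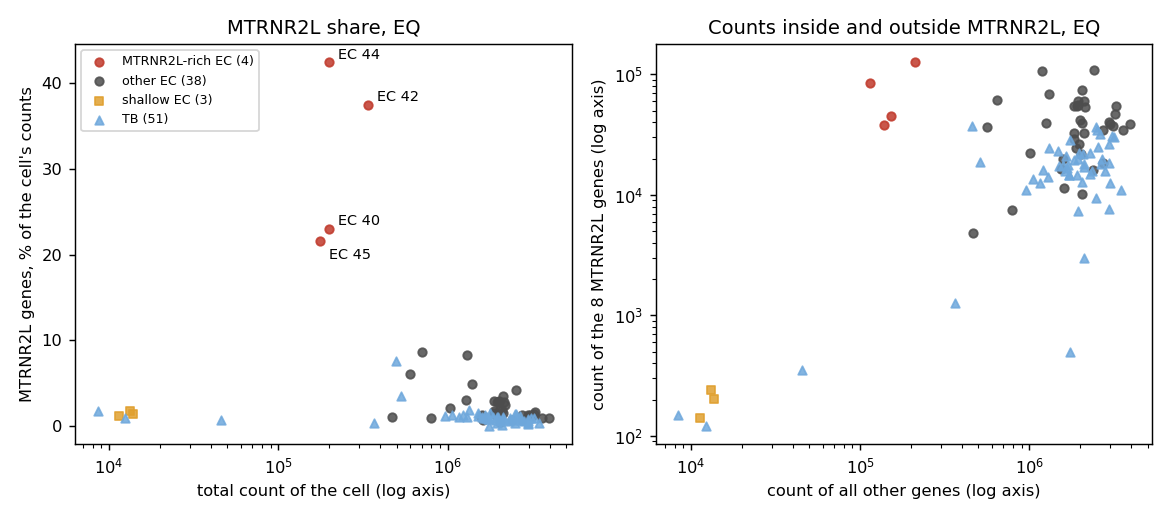
Left, the percent of a cell's counts in the 8 MTRNR2L genes against its total count (log axis) in EQ; right, the MTRNR2L count against the count of all other genes (both log axes). Each point is 1 cell of the 4 MTRNR2L-rich EC, 38 other EC, 3 shallow EC or 51 TB cells. The 4 MTRNR2L-rich cells lie at 21.6% to 42.5%, and they have fewer counts in all other genes than any of the 38 other EC cells; the MTRNR2L count of EC 42 is above their range and those of the other 3 are within it.

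Once MTRNR2L genes were removed, the top 50 genes held 18.9%, 17.1%, 27.9% and 23.4% of the remaining counts in EC 40, EC 42, EC 44 and EC 45. The other EC cells ranged from 14.4% to 20.9% (median 16.2%). EC 44 and EC 45 stayed above that range and EC 40 and EC 42 lay within it, so without MTRNR2L genes the groups overlapped in this measure.

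All later comparisons left MTRNR2L genes out of the counts and scaled the rest to 1000000 per cell (CPM). As deposited, 6727, 8091, 7258 and 7112 genes had a rounded count of at least 1, and the other EC cells had 7442 to 9862. When every cell was thinned to the 114907 counts of EC 44, the 4 cells had 6286, 7144, 7258 and 6798 genes and the other EC cells 4847 to 7161 with a median of 5914.5. All 4 were above that median, and EC 44 above the highest. In EQ-Vary, thinned to 68024 counts, the 4 cells had 5383 to 6328 genes against a median of 5233 in the other EC cells. In EQ-75%, thinned to 71819 counts, they had 4943 to 5882 against a median of 5122, so at least 1 of the 4 was below the median there, and the groups overlapped in all 3 experiments.

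They also held more genes at high level that were low elsewhere. At equal depth, 60, 35, 50 and 39 genes reached 1000 CPM in EC 40, EC 42, EC 44 and EC 45 while their median in the other EC cells was under 100 CPM. In the other EC cells this number was 0 to 62 with a median of 7, the highest being EC 23. Such genes took 10.3%, 5.41%, 13.2% and 8.36% of the counts of the 4 cells.

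The 4 cells held endothelial markers. The 20 endothelial markers summed to 5368, 4075, 2559 and 1671 CPM in EC 40, EC 42, EC 44 and EC 45, against 722 to 12304 CPM (median 7158) in the other EC cells and 6.29 to 187 CPM in TB cells. All 4 were below the EC median and above every TB cell. At equal depth 15 to 17 of the 20 markers were detected, and the median of the other EC cells was 15. KDR, the main VEGF receptor of endothelium, stood at 1221, 940, 548 and 210 CPM, against a median of 1830. PECAM1, a junction protein of endothelial cells, stood at 263, 575, 235 and 297 CPM, against a median of 1035. CD34, a surface sialomucin, was at 26.3, 404, 113 and 43.4 CPM, against 683. CLDN5, a tight junction gene, had 0 counts in all 4, and its median in the other EC cells was also 0. Of the 17 markers tested, 3 (17.6%) were at least 2-fold higher and 7 (41.2%) lower, near the 19.5% and 39.9% of all genes tested. The 3 were TIE1, an endothelial receptor kinase (315, 109, 374 and 50.6 CPM, against a median of 33.7), EGFL7, and ENG, which was high in EC 45 alone (398 CPM). They were named after their values were seen.

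Over all genes, 8435 had a mean of at least 10 CPM over the 42 cells compared. The log2 ratio of the mean CPM of the 4 cells to that of the other EC cells, with 10 CPM added to both, had a median of -0.62 over these genes. Of them, 1649 (19.5%) were at least 2-fold higher and 3363 (39.9%) at least 2-fold lower in the MTRNR2L-rich cells. With so few cells and counts these are folds past a limit and not tested changes. Many were due to 1 cell: in 569 of the 1649 higher genes, more than 75% of the CPM summed over the 4 cells came from a single cell, and 401 of the lower genes had no count in any of the 4. Relative to the median of -0.62 the split turned, with 2527 genes 2-fold higher and 1777 lower. With MTRNR2L genes kept in the total, it was 1051 higher and 4026 lower. With the difference of mean log2 values it was 1469 higher and 1453 lower. Statements on direction below therefore refer to the main scaling, and no excess of lower over higher genes is read from it.

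The largest ratios above 1 were mostly 1-cell values. They were taken among the 654 genes that were 2-fold higher in EQ, EQ-Vary and EQ-75% and lay above the median of the other EC cells in all 4 cells, and in 7 of the top 10 a single cell held more than 75%. MAN1A1, a mannosidase of the Golgi, stood at 6.56, 4.75, 17.4 and 8464 CPM in EC 40, EC 42, EC 44 and EC 45, against a median of 0.530 and a highest value of 156. FAM117B stood at 39.4, 76.0, 11409 and 123 CPM, with EC 44 alone far above the highest of the others, 1030. EC 40 was the highest of the 4 cells, with over 75% of their summed CPM, for CNOT6, a deadenylase subunit (3728 CPM), TBCCD1 (3964 CPM), BRD9, a bromodomain protein (1772 CPM), ENTPD6, a nucleotidase (1542 CPM), and CDH6, a cadherin (1496 CPM). The highest value of the other EC cells was 178 CPM for CNOT6, 523 for TBCCD1, 80.7 for BRD9, 317 for ENTPD6 and 25.0 for CDH6. In CDH6 the other 3 cells, at 28.5 to 79.6 CPM, were also above that value, and in BRD9 so were EC 42 and EC 44, at 123 and 104 CPM. The mean of the other EC cells was 4.70 CPM for CDH6 and 8.36 CPM for BRD9, so both passed the filter of 10 CPM only through the 4 cells.

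The other 3 of the 10 were high in more than 1 cell. LPIN3, a phosphatidate phosphatase, stood at 39.4, 337, 722 and 593 CPM, against 2.18 to 93.8 CPM (median 10.5). PPIL6, of the cyclophilin family, stood at 190, 532, 479 and 2185 CPM, against 12.2 to 170 CPM. LINC01551, a long noncoding RNA, stood at 19.7, 313, 383 and 883 CPM, against at most 78.1. PPIL6 did not overlap between the groups, and the other two did only through EC 40.

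The lowest ratios were taken among 999 genes below the median of the other EC cells in all 4 cells and 2-fold lower in all 3 experiments. COLGALT1, which adds galactose to collagen, stood at 52.5, 33.2, 87.0 and 21.7 CPM, against 2.98 to 2322 CPM (median 800). ARRDC3, an arrestin-domain protein, stood at 59.1, 71.2, 122 and 50.6 CPM, against a median of 588. ADAR, the RNA-editing deaminase, stood at 13.1, 14.2, 0 and 21.7 CPM, against a median of 257. TMED2, a cargo receptor of early secretory vesicles, stood at 6.56, 4.75, 8.70 and 21.7 CPM, against a median of 224. In each of these the groups overlapped through the lowest of the other EC cells.

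The other 6 of the 10 rested on a few counts. SUSD6 had 4 counts summed over the 4 cells, TGM2, a transglutaminase, had 3, KLHL4 had 2 and RAPH1, an actin regulator, had 1. The mean of RAPH1 in the other EC cells was 127 times the pooled level of the 4 cells, with a counting interval of 22.8 to 5011. The same ratio was 63.1 (17.5 to 521) for KLHL4 and 39.7 (13.6 to 192) for TGM2. VAMP3, a vesicle SNARE, and ZBTB39, a zinc-finger protein, had 0 counts. Against a floor of 3 counts over the 4 cells, or 4.87 CPM, they were at least 26.4-fold and at least 30.7-fold lower than the mean of the other EC cells. The ZBTB39 mean itself came from few cells, as its median there was 3.73 CPM and its highest value 2460.

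A stricter view, added after the values were seen, counted genes whose 4 MTRNR2L-rich cells all lay outside the range of the 38 others. There were 30 such genes above the range (0.356% of the 8435) and 6 below it (0.0711%). The filter of 10 CPM took the mean over both groups, so a gene low elsewhere could pass through the 4 cells alone. CDH6, ACTC1 and CASP8 did so, with means of 4.70, 4.69 and 8.48 CPM in the other EC cells. So did CAMK4, TINCR, CDT1, EREG, HAVCR2, KCNG4 and SHROOM4, with means of 6.46 to 9.87 CPM. TPM1, SCD5 and XRCC2 did not, with 58.6, 78.8 and 83.8 CPM. The number above the range therefore rests in part on the filter. Above it, TPM1, an actin-binding tropomyosin, stood at 295, 1548, 444 and 340 CPM, against 7.58 to 257 CPM. SCD5, a fatty acid desaturase, stood at 512, 408, 609 and 868 CPM, against 7.48 to 374 CPM. ACTC1, the cardiac actin, stood at 85.3, 47.5, 95.7 and 65.1 CPM, against at most 18.8. CASP8, the initiator caspase of death receptors, stood at 45.9, 42.7, 165 and 109 CPM, against at most 28.4. XRCC2, a DNA repair gene, stood at 282, 275, 261 and 572 CPM, against at most 228.

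Of the 6 below the range, SRSF6, a splicing factor, stood at 118, 356, 513 and 289 CPM, against 875 to 7571 CPM. HNRNPU, a nuclear RNA-binding protein, stood at 45.9, 61.7, 52.2 and 36.2 CPM, against 75.0 to 1375 CPM. TMBIM6, a membrane protein of the endoplasmic reticulum, stood at 243, 76.0, 157 and 101.3 CPM, against 302 to 2749 CPM. ARPC5, a subunit of the actin-nucleating ARP2/3 complex, stood at 39.4, 38, 26.1 and 50.6 CPM, against 58.0 to 922 CPM. UBXN11 was at most 34.8 CPM, against at least 46.9. VAMP3 met the criterion only because it had 0 counts in shallow libraries, since its lowest value among the others was 0.468 CPM.

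**Figure D3:**
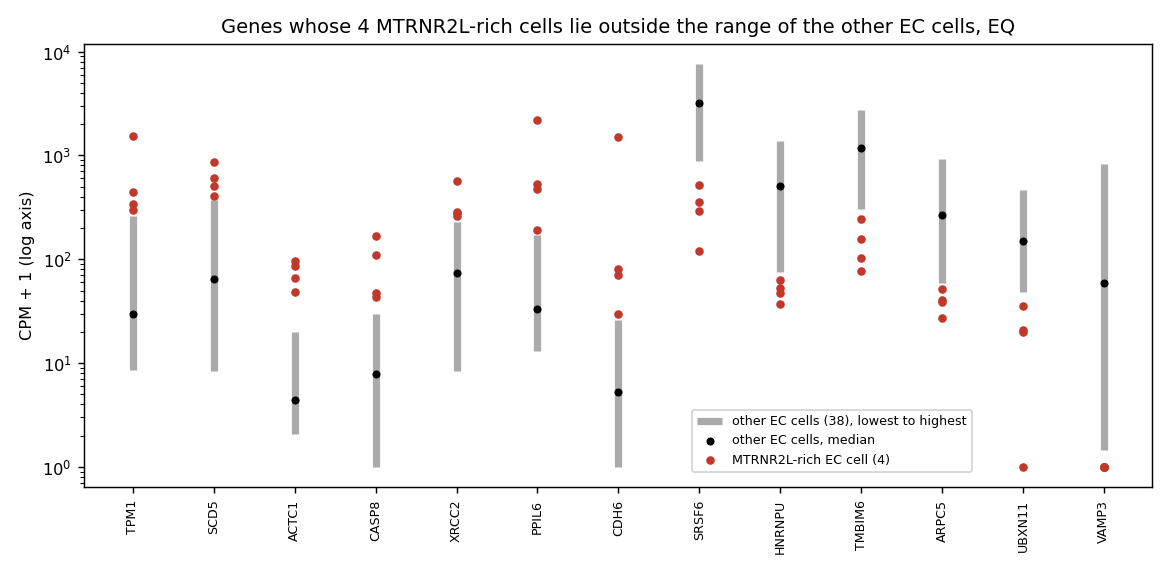
CPM plus 1 (log axis) in EQ of 13 genes whose 4 MTRNR2L-rich EC cells (red points) all lie above or all below the range of the 38 other EC cells (grey bars, lowest to highest; black points, median). The first 7 genes, from TPM1 to CDH6, are examples of those above the range, and the last 6 are those below it; MTRNR2L genes are left out of the scaling.

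Outside MTRNR2L, 1 gene led all 4 cells. RAB12, a small GTPase of recycling vesicles, stood at 9759, 28123, 26169 and 19171 CPM, against 617 to 15257 CPM (median 1893) in the other EC cells. SOD2, the superoxide dismutase of mitochondria, stood at 6753, 10756, 8146 and 11619 CPM, against 549 to 9091 CPM (median 2252). RPAP2, a phosphatase of RNA polymerase II, stood at 3564, 5096, 5430 and 8327 CPM, against 338 to 4678 CPM (median 1190). All 4 cells were above the medians. EC 40 lay within the range of the other EC cells for each of the 3 genes, and EC 44 also for SOD2. These genes were singled out after their values were seen.

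Repeated sequence, a property the selection did not use, was more frequent among the higher genes. Each gene's GENCODE v44 protein-coding transcripts were cut into words of 29 bases, and a word was called repeated when it occurred in at least 10 genes. Of the 17492 genes, 17024 were matched by identifier, and 22094 words were repeated. The most widely shared word, which belongs to the Alu family, the commonest short interspersed repeat of primate genomes, was in 927 genes. Alu copies in transcripts lie mostly in untranslated regions and retained introns.

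The log2 ratio of a gene was higher the more repeated words it held. The median was -1.05 for the 4254 tested genes with none, -0.62 for the 1582 with up to 1% of their words, 0.32 for the 2192 with over 1% to 5% and 1.41 for the 322 with more. The share of genes at least 2-fold higher was 11.1%, 15.5%, 31.8% and 64.0% in those bins, against 19.4% of all 8350 tested genes with a transcript. The share at least 2-fold lower was 51.5%, 38.6%, 23.4% and 10.2%, against 40.1%. The 728 tested genes with the most shared word had a median of 0.55, and the 7622 without it -0.72.

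Genes with repeated words had longer transcripts than those without, though length did not rise with the percent of such words. The order held within length and level. The median longest transcript was 3100 bases in genes with none, 5034 with up to 1%, 4642 with over 1% to 5% and 3875.5 with more. It was 3886.5 over all tested genes with a transcript. In the bin of shortest transcripts, up to 2438 bases, the median log2 ratio was -1.15 with no repeated word and 0.17 with over 1%. In the bin of longest transcripts it was -0.73 and 0.64. In the bin of genes with the lowest mean in the other EC cells it was -0.68 and 1.08, and in the highest bin -1.16 and -0.31. The filter on mean CPM was taken over both groups. A gene low in the other EC cells could therefore enter the lowest bin of level through the MTRNR2L-rich cells alone. The values of that bin rest in part on this filter. In the bin of level next above the lowest, the medians were -1.21 and 0.64. In each of these bins genes with repeated words stood above those without, and in the highest bin of level both medians were below 0.

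The same medians in EQ-Vary were -1.02, -0.59, 0.27 and 1.37 from no repeated words to the most, and in EQ-75% -1.16, -0.73, 0.20 and 1.49. The genes above the range were chosen for being high in the MTRNR2L-rich cells. Some of them passed the filter on mean CPM only through those cells, and the part of this in their make-up was not tested. Of the 29 tested genes above the range that had a transcript, 28 held a repeated word, against 49.1% of all genes tested. Of the 1621 genes 2-fold higher that had a transcript, 70.9% held one and 472 held none, among them MAN1A1, BRD9 and ENTPD6. The percent of repeated words was 7.87% for CCDC122 among those genes, and 0 for ACTC1. RAB12 had 0.333% and RPAP2 2.08%, and SOD2 was not among the matched genes.

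Genes with over 5% repeated words took 4.60%, 7.49%, 7.73% and 13.2% of the counts outside MTRNR2L in EC 40, EC 42, EC 44 and EC 45. In the other EC cells they took 2.32% to 7.49% (median 3.60%), and in TB cells 2.16% to 6.83%. The shallow cell EC 41, with 1.44% of its counts in MTRNR2L genes, had 8.40%, above 3 of the 4 cells. EC 40 lay within the range of the other EC cells, EC 42 and EC 44 just above its end, and EC 45 far above. The highest of the other EC cells was EC 23, which also had the highest MTRNR2L share of them. The 4 cells had 4.67%, 7.38%, 7.62% and 13.4% in EQ-Vary. Their values from EQ-75% were 4.46%, 5.88%, 7.12% and 14.8%. A read from a repeat can be divided among many genes by the estimation of counts, and the part of this in the result was not tested.

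**Figure D4:**
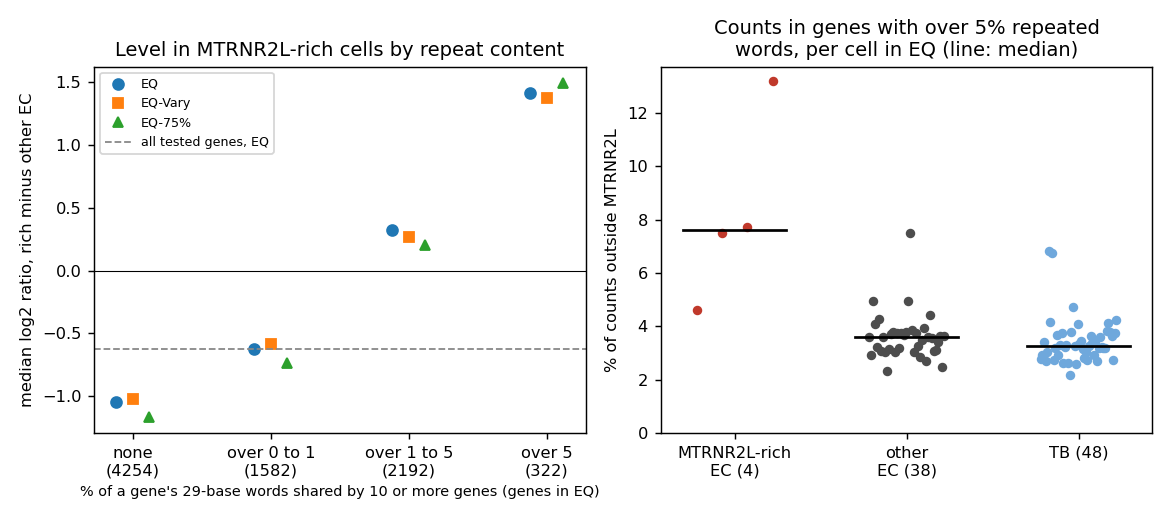
Left, the median log2 ratio of MTRNR2L-rich to other EC cells for genes grouped by the percent of their 29-base words that occur in 10 or more genes, in EQ, EQ-Vary and EQ-75% (dashed line, all genes tested in EQ; numbers of genes in parentheses). Right, the percent of counts outside MTRNR2L in genes with over 5% such words, 1 point per cell in EQ, with the median as a line. The medians climb from -1.05 to 1.41 in EQ, and 3 of the 4 MTRNR2L-rich cells lie above the highest other EC cell, 2 of them narrowly.

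Among cells that did not enter the 4, the relation was seen in TB more than in EC. Over 48 TB cells, Spearman's rho between the MTRNR2L share and the share of genes with over 5% repeated words was 0.60 (Pearson's r 0.81), and 0.55 without the 2 cells highest in MTRNR2L. Over the 38 other EC cells rho was 0.02 (r 0.58), and -0.15 without the 2 highest, so r rested on those cells. Between the MTRNR2L share and RAB12, rho was 0.53 in EC and 0.55 in TB. For SOD2 it was 0.13 in EC and 0.73 in TB, and for RPAP2 0.12 and 0.63, so in EC only RAB12 showed the relation. The cells of each type share their source, no separate cultures being named. The MTRNR2L share fell with total count (rho -0.30 in EC and -0.50 in TB). So did the share of genes with over 5% repeated words (-0.27 and -0.38) and, more strongly, RAB12 (-0.61 and -0.64). These values are therefore descriptions without a p-value.

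The 79 nuclear-encoded subunits of the respiratory chain summed to 8039, 11825, 11522 and 5592 CPM, against 7989 to 15679 CPM (median 11623). Only EC 45 was below that range. Of the 75 tested, 8 (10.7%) were 2-fold higher and 36 (48%) lower, against 19.5% and 39.9% of all genes tested, with a median log2 ratio of -0.93 beside -0.62 for all genes. COX4I1, a subunit of cytochrome c oxidase, stood at 52.5, 185, 131 and 36.2 CPM, against a median of 504, while NDUFA9, of complex I, stood at 492, 470, 548 and 832 CPM, against a median of 439. Mitochondrial ribosomal proteins, the partners of MT-RNR2 in the ribosome, summed to 4226, 5048, 2445 and 5013 CPM, against 2203 to 6785 CPM, and overlapped fully. Of their 72 tested genes, 8 (11.1%) were 2-fold higher and 38 (52.8%) lower, beside 19.5% and 39.9% of all genes. Factors that express the mitochondrial genome summed to 545 to 936 CPM, against a median of 966, with 2 of 15 tested genes (13.3%) higher and 8 (53.3%) lower, beside 19.5% and 39.9% of all genes. Mitochondrial chaperones and proteases summed to 2566, 955, 444 and 673 CPM, against 666 to 10592 CPM. EC 44 was below that range, and the value of EC 40 came mainly from HSPD1, the HSP60 chaperonin, at 2212 CPM.

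Among household groups, cytosolic ribosomal proteins were alike in both groups, with 48683, 53349, 39580 and 39833 CPM against 26785 to 68960 CPM (median 43153). Of these 79 genes, 5 (6.33%) were 2-fold higher and 5 lower, beside 19.5% and 39.9% of all genes. RPL41 stood at 3222, 1871, 1523 and 6352 CPM, against a median of 1482, and RPL3 at 236, 1178, 4865 and 260 CPM, against 1592. Glycolysis genes summed to 17825, 17732, 4264 and 26428 CPM, against 13651 to 49794 CPM (median 26850). EC 44 was below the range, and of the 18 genes 1 was 2-fold higher and 9 (50%) lower, beside 19.5% and 39.9% of all genes. GAPDH stood at 3774, 3984, 731 and 6207 CPM, against a median of 6204, and ENO1, the enolase, at 3459, 1239, 470 and 383 CPM, against 5061. Cytoskeleton and translation genes summed to 24657, 25744, 35559 and 19388 CPM, all below the median of 36799. Of the 19 genes, 1 was 2-fold higher and 9 (47.4%) lower, beside 19.5% and 39.9% of all genes. Many genes in these groups are long-known sources of retrocopies, so reads of near-identical copies make their single values uncertain.

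Heat shock genes summed to 5027, 2935, 1871 and 4254 CPM, all below the median of 6889 and within the range of 1543 to 42149, with 1 of 11 genes 2-fold higher and 4 (36.4%) lower, beside 19.5% and 39.9% of all genes. HSPA8, the constitutive HSP70, stood at 669, 190, 339 and 152 CPM, against a median of 1533. Unfolded protein and amino acid stress genes summed to 3544, 2726, 3803 and 760 CPM, against 1548 to 11524 CPM, EC 45 lying below that range, with 4 of 15 (26.7%) higher and 10 (66.7%) lower, beside 19.5% and 39.9% of all genes. HSPA5, the chaperone of the endoplasmic reticulum, was lower in all 4 cells, at 91.9 to 209 CPM, against a median of 473. Apoptosis and p53 target genes summed to 2546, 1491, 1297 and 3161 CPM, on both sides of the median of 1847. MDM2, the ligase for p53, stood at 492, 836, 461 and 1642 CPM, against 471. Immediate early genes summed to 899, 370, 183 and 253 CPM, against a median of 306.

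S phase genes summed to 1391, 2004, 975 and 955 CPM, against 32.9 to 3373 CPM with a median of 373, so all 4 cells were above the median and within the range. Of 14 tested genes, 6 (42.9%) were 2-fold higher and 3 (21.4%) lower, beside 19.5% and 39.9% of all genes. Their median log2 ratio was 0.17, but EQ-Vary gave -0.54 and EQ-75% gave -0.39. The most abundant of them in the other EC cells, MCM3, stood at 6.56, 9.50, 104 and 0 CPM, against a median of 6.89. G2/M genes summed to 1214, 2593, 331 and 3241 CPM, all above the median of 167 and within 7.02 to 14337 CPM. Yet of the 20 genes tested 2 (10%) were 2-fold higher and 11 (55%) lower, beside 19.5% and 39.9% of all genes. Their median log2 ratio was -1.20, beside -0.62 for all genes. BIRC5, the mitotic survivin, stood at 26.3, 1543, 34.8 and 50.6 CPM, against a median of 3.10. TOP2A reached 356 CPM in EC 42 and at most 36.2 in the other 3.

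Markers of other cell states were present at low level. The 12 trophoblast markers summed to 1798, 940, 653 and 1490 CPM, above the EC median of 504 and below every TB cell (3281 to 18565 CPM). TP63 and KRT7 had 0 counts in all 4, while KRT18, an epithelial keratin, stood at 1096, 76.0, 278 and 1006 CPM, against a median of 170. KRT8, its partner keratin, stood at 72.2, 57.0, 95.7 and 86.8 CPM, against a median of 40.7 and a mean of 140. Of the 6 trophoblast markers tested, 0 were 2-fold higher and 0 lower, beside 19.5% and 39.9% of all genes. At equal depth 8 to 10 of the 12 were detected, against a median of 5 in the other EC cells. The pluripotency genes summed to 669, 2184, 1401 and 933 CPM, above the EC median of 471. LIN28A stood at 473, 332, 391.6 and 275 CPM, against a median of 260, and NANOG at 39.4, 185, 165 and 217 CPM, against 34.2. The 3 of 7 tested pluripotency genes past 2-fold higher were POU5F1, DPPA4 and L1TD1, and the 2 past 2-fold lower were DNMT3B and GDF3, named after their values were seen. These were 42.9% and 28.6% of the 7, beside 19.5% and 39.9% of all genes. DNMT3B, a DNA methyltransferase, had 1 count in EC 40 and 0 in the other 3, against a median of 3.01 CPM and a highest value of 519. SOX2 had 1 count in EC 40 and 0 in the others. Stromal genes summed to 709, 2455, 1723 and 817 CPM, against 152 to 4090 CPM. Mesendoderm genes summed to 6.56, 14.2, 26.1 and 0 CPM, against 0 to 387 CPM (median 1.26). Most of the mesendoderm genes (11 of 12) had 0 counts in all 4 cells. In the other EC cells the median number detected at equal depth was also 0. The part of other cell types in the results was not tested.

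**Figure D5:**
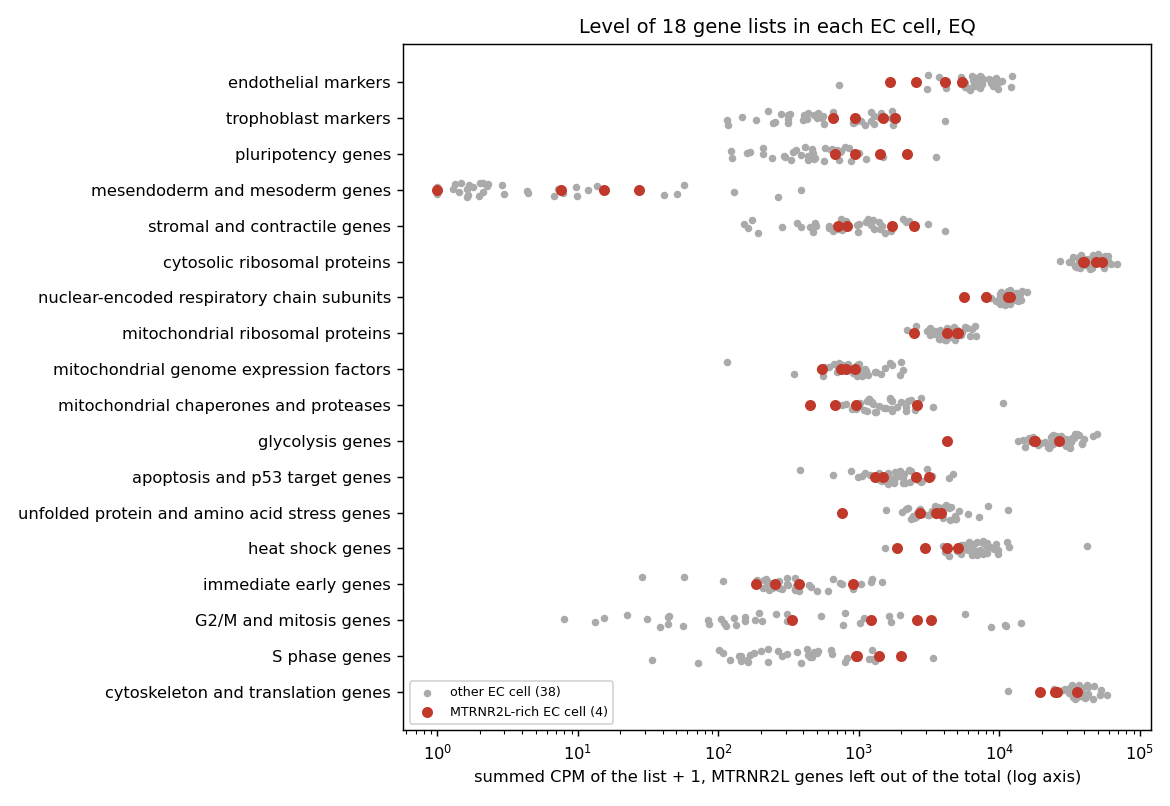
Summed CPM plus 1 (log axis) of each of 18 gene lists, MTRNR2L genes left out of the scaling, in the 4 MTRNR2L-rich EC cells (red) and the 38 other EC cells (grey) of EQ, 1 point per cell. The red points lie within the grey range in most lists, with EC 44 below it for glycolysis genes and mitochondrial chaperones and EC 45 below it for respiratory chain subunits and unfolded protein genes.

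The other 2 experiments gave similar shares, though in EQ-75% EC 42 and EC 44 were somewhat higher and EC 45 lower than in EQ. The MTRNR2L share was 22.9%, 37.4%, 43.1% and 22% for EC 40, EC 42, EC 44 and EC 45 of EQ-Vary, while EQ-75% gave 23.1%, 40.6%, 44.5% and 20.6%. The other EC cells stood at 0.495% to 8.89% and 0.487% to 8.08%. Of the 1649 genes 2-fold higher in EQ, 89.1% were so in EQ-Vary and 88.0% in EQ-75%. Of the 3363 lower genes, 86.6% and 89.7% were. In EQ-Vary 19.7% of genes tested were higher and 39.5% lower, and in EQ-75% 19.4% and 44.5%. As the cDNA was the same, this covers only steps after it. These were library preparation and sequencing in EQ-75%, and at least pooling and sequencing in EQ-Vary. In EQ-75%, 1 other EC cell (EC 29), under the limit on total count there, was left out.

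Profiles of the same cell were less alike between experiments in the 4 than in the others. Across genes outside MTRNR2L, Pearson's r of log2(CPM + 1) between EQ and EQ-Vary was 0.839 to 0.882 in the 4 cells and 0.952 to 0.996 in the other EC cells. After thinning to 68024 counts it was 0.804 to 0.833 and 0.856 to 0.900, so a gap remained at equal depth. Between EQ and EQ-75% it was 0.792 to 0.828 and 0.860 to 0.899 at that depth. Genes are not independent replicates, and these values carry no test. Within EQ, thinned to 114907 counts, r of each MTRNR2L-rich cell with the mean of the other EC cells was 0.666 to 0.720, inside the 0.656 to 0.801 of the other EC cells themselves. The median r of an MTRNR2L-rich cell with the other 3 was 0.632 to 0.682, against 0.546 to 0.652 for an other EC cell with the same 4.

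In the shallow EC cells, EC 41 changed between experiments. It had 13913 counts with 1.44% in MTRNR2L genes in EQ and 231090 counts with 8.29% in EQ-75%. EC 1 had 1.24% in EQ, and in EQ-75% 2.35% of 1353233 counts. EC 14 went from 1.80% to 2.76% of 1615784 counts. None of the 3 came near the 31% limit, with 22.5% in the top 50 genes of EC 41 in EQ-75%.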

How the data were processed

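Expression of 17492 genes was measured in single EC and TB cells. Per the labels and methods, the authors trimmed reads to 51 bases, mapped them to GRCh38 protein-coding genes with Bowtie 1.2.3 (up to 2 mismatches), estimated expected counts with RSEM 1.2.31 and deposited these expected counts without normalization. A read mapping to several genes is divided among them. Base calling used CASAVA 1.8.2.

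Groups came from the labels and from 2 limits of the study applied to the rounded counts. The members and gene lists were chosen with earlier results of these data known, and the cells were selected on a measured value. Each cell type in an experiment was treated as 1 sample, so no test was run. Expected counts were rounded and 0 columns of other samples were left unused. MTRNR2L symbols were removed, the rest scaled to CPM, cells weighted equally, genes under a mean of 10 CPM left out and 10 CPM added before log2 ratios. A call was a 2-fold ratio. A count of 1 was a detection, and 1 count was worth several CPM in the 4 cells. Cells were thinned without replacement to 114907 counts for detection.

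Named genes were every MTRNR2L gene, the 10 highest and 10 lowest ratios past 2-fold in all 3 experiments and on 1 side of the median of the other EC cells in all 4 cells (counted in each of the 4 if higher, detected in at least 30 others if lower), and the 3 most abundant genes of each list. Genes without overlap, RAB12, SOD2, RPAP2 and the repeated words were added after values were seen. Windows of MT-RNR2 were compared without gaps on GRCh38, with RefSeq coordinates. Total counts of the 4 cells were 176237 to 336843 and of the other EC cells 471578 to 3966798. The log2 ratios and the thinning were tested on simulated data. Scripts ran under Python 3.11.15 with pandas 2.3.3, numpy 2.4.6 and scipy 1.17.1, and plots were drawn by matplotlib 3.10.9.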

Additional observations from a re-analysis of the deposited data

Results flagged for a closer look

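The total count of EC 42 in EQ, 336843, stood apart from those of the other 3 MTRNR2L-rich cells by Dixon's gap criterion. It was the only one of 25 values examined over the 4 cells that did, where chance marks about 1 in 20. EC 42 was also the only one of the 4 above the limit on total count.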

How the results depend on the processing

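No paired analysis was possible because the results come from no test and the 4 cells were selected on a measured value. Each result was recomputed under alternatives that changed 1 choice, 360 values in all, of which 328 moved by less than the SD between the 4 cells (or, for counts of genes, by less than 1.5 times) and 32 moved further. The MTRNR2L share of the 4 cells had a median of 30.3% and was 23% to 37.5% when each cell was left out in turn, and the top 50 share without MTRNR2L 18.9% to 23.4%. Genes detected at equal depth were 6798 to 7144 with 1 cell left out, 5857 in EQ-Vary and 5494.5 in EQ-75% (both at their own lower depth) and 5206.5 at a count of at least 2. Leaving out each cell in turn gave 1423 to 1660 genes 2-fold higher and 3397 to 3766 lower. The counts moved to 1051 higher with MTRNR2L kept in the total, which lowered the median of all genes from -0.62 to -0.95. They moved to 1453 lower with the difference of mean log2 values, and to 2527 higher and 1777 lower with ratios centred on the median, an alternative added after the data were seen.

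For list levels, as log2 ratios of rich to other EC cells, 174 of 198 values kept the sign of the main value, leave-one-out values aside. With MTRNR2L kept in the total the ratio was -0.48 for cytosolic ribosomal proteins (0.02 in the main scaling), -0.90 for respiratory chain subunits, -0.96 for mitochondrial genome expression factors, 0.81 for S phase genes and -1.03 for cytoskeleton and translation genes. Centred on the median it was 0.64, 0.28, 0.19, 1.95 and 0.14 for these, 0.53 for mitochondrial ribosomal proteins and 0.72 for apoptosis and p53 target genes. Against the shallow EC cells alone it was -0.24 for endothelial markers (-1.05 in the main comparison), -1.24 for trophoblast markers, -3.18 for mesendoderm genes, -1.47 for stromal genes, -0.32 for cytosolic ribosomal proteins, -1.29 for immediate early genes and 0.73 for S phase genes. With EC 42 alone it was 1.84 for pluripotency genes, 0.26 for cytosolic ribosomal proteins and 1.92 for S phase genes. Mesendoderm genes stood at -0.40 in EQ-Vary. The cause of these shifts was not tested. Leaving out each cell in turn gave -1.35 to -0.82 for endothelial, 0.40 to 0.85 for trophoblast, 0.72 to 1.31 for pluripotency, -1.95 to -0.78 for mesendoderm and -0.01 to 0.61 for stromal genes. It gave -0.06 to 0.08 for cytosolic and -0.19 to 0.10 for mitochondrial ribosomal proteins, -0.48 to -0.16 for respiratory chain, -0.54 to -0.29 for mitochondrial expression and -1.34 to -0.32 for mitochondrial chaperone genes. It gave -1.06 to -0.42 for glycolysis, -0.15 to 0.28 for apoptosis, -0.72 to -0.20 for unfolded protein, -1.39 to -0.96 for heat shock and -0.67 to 0.24 for immediate early genes. It gave -0.27 to 0.50 for G2/M, 1.07 to 1.46 for S phase and -0.66 to -0.36 for cytoskeleton genes. Genes with over 5% repeated words stood at 1.19 in the main comparison and 0.70 to 1.81 over the alternatives. Depth limits all gene values: the lowest of the other EC cells had more counts outside MTRNR2L than any of the 4.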
